A study of Brassica rapa subsp. pekinensis with 2 samples.

Results

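A group of 122 genes was higher in sterile than in fertile flower buds of Chinese cabbage, out of 41019 genes in the deposited expression table. Members had an RPKM (reads scaled to gene length and library total) of at least 20 in sterile buds and a ratio of (sterile RPKM + 1) to (fertile RPKM + 1) of at least 4. Genes that the authors had named in their tables were left out. The members were thus chosen by the RPKM values of the same 2 libraries, so the levels and ratios of the members are a description and no test of them is given. By this rule 122 of the 40794 genes without a name were members, which is 0.299%, and nothing is read from that share.

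The libraries came from buds of AB02, a line of Brassica rapa subsp. pekinensis kept as a mixture of male fertile and male sterile plants. Its sterility is genic, with multiple-allele inheritance. Both groups were grown in a greenhouse from vernalized seed and differed in the labelled genotype, fertile or sterile, and each had 1 library. No difference therefore has a replicate check, and the labels do not say how many plants or which bud stages were pooled. The sources state no age, bud size or further allele.

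In genic male sterile plants the anthers fail to deliver functional pollen while the other organs of the flower form. Buds hold sepals, petals, carpels, nectaries and stamens, and the stamens hold pollen and the tapetum, the nurse tissue of the anther. RPKM is relative to a library total, and in whole buds more cells of a type and more RNA per cell cannot be told apart. Of 23 marker symbols for pollen, tapetum and other bud tissues, 1 could be paired with a gene identifier. This was PPME1, a pectin methylesterase of the pollen tube wall. Its copy Bra009265 stood at 400.0 RPKM in fertile against 0 in sterile buds, and its copy Bra028699 at 168 and 0 RPKM. The levels of these copies match the labels fertile and sterile. The name was paired only through the authors' tables of genes from these same libraries, so this match is no independent check. Markers of sepal, petal, carpel and vascular tissue were not analysed here, so the organs in which the members are expressed are not known from these values.

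The members carried an identifier and no name. The table of RefSeq genes for assembly CAAS_Brap_v3.01 paired 1 of the 41019 identifiers with a gene, which was not a member. No role is therefore given for a member, and the genes are described by level, ratio, reads and place in the identifier series.

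Read depth bears on each of these values. The totals behind the RPKM were 1803154 reads for fertile and 1567647 reads for sterile buds, if gene lengths are multiples of 3 bp like coding sequences. At 1 kb of length, a single read then stands for 0.555 RPKM (fertile) or 0.638 RPKM (sterile). Reads are given below as the smallest whole numbers that reproduce both RPKM values, so the true reads can be a multiple. Across the 27940 genes with an RPKM of at least 1 in a library, the median difference of sterile minus fertile was 0.17 on the log2(RPKM + 1) scale. A ratio of 4 is a difference of 2 on that scale. That the members lie beyond this shared shift was therefore fixed by the rule and is no test of scaling.

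In sterile buds the members ranged from 20.1 to 551 RPKM, with a median of 38.5 RPKM. In fertile buds the same genes ranged from 0 to 134 RPKM, with a median of 5.42 RPKM. The rule keeps fertile RPKM low relative to sterile RPKM, so low to middle fertile levels follow largely from the choice of members. In fertile buds 14 of them reached 20 RPKM. A further 52 lay from 5 to 20 RPKM in fertile buds, 40 from 1 to 5 RPKM, 3 above 0 but under 1 RPKM, and 13 were listed at 0. In the order of all genes by level, the median place of the members was 5822.5 in the sterile and 17782.5 in the fertile library. The low places in the fertile library are likewise favoured by the rule. Of the 1000 most abundant genes of sterile buds 6 were members, and of the 1000 most abundant genes of fertile buds 0 were.

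The ratios were mostly moderate. Their median was 6.18, and 34 members (27.9%) had a ratio from 4 to 5, 48 (39.3%) from 5 to 10, 23 (18.9%) from 10 to 20 and 17 (13.9%) of 20 or more. Of the 17 with the highest ratios 13 were at 0 in fertile buds, where the ratio is set by the sterile level alone. The 64 members at 20 to 40 RPKM in sterile buds had a median ratio of 6.53, the 39 members at 40 to 100 RPKM one of 5.88, and the 19 members at 100 RPKM or more one of 5.22. A gene with less RPKM in sterile buds needed less in fertile buds to pass, and 12 of the 13 members at 0 in fertile buds were in the lowest of these classes. After rescaling sterile RPKM by the median ratio of the genes above 0 in both libraries, 81 of the 122 genes still met both thresholds, and 77 did when the scaling was a trimmed mean. The lowest difference of a member was then 1.80 and 1.77 on the log2(RPKM + 1) scale. The scalings shifted log2 values by only -0.202 and -0.233, while the rule demands a difference of 2. That every member remained higher in sterile buds was therefore fixed in advance and is no test.

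**Figure D1:**
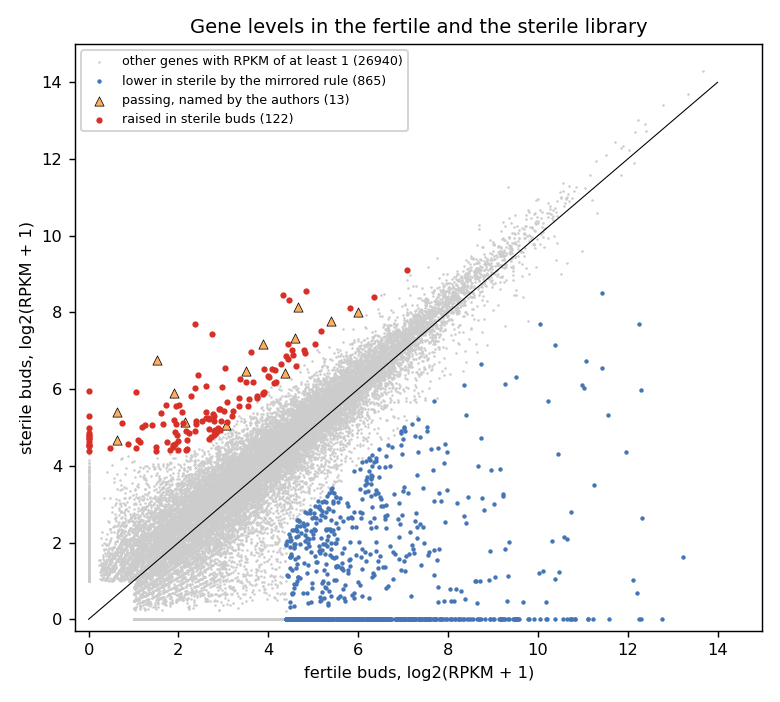
Level of each gene in fertile buds (horizontal axis) and sterile buds (vertical axis), both as log2(RPKM + 1), with the diagonal marking equal levels. The 122 members (red) and the 13 named genes that met the same thresholds (triangles) form a band above the diagonal, while 865 genes that met the mirrored thresholds (blue) spread down to 0 in sterile buds.

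The most abundant member was Bra009384, at 134 RPKM in fertile against 551 RPKM in sterile buds. Its ratio of RPKM was 4.11, with a 95% counting interval from 3.31 to 5.14 over 108 and 386 reads. It was thus abundant in both kinds of bud, taking place 1720 in the fertile and place 302 in the sterile library. Ratios given with an interval, here and below, are ratios of RPKM with nothing added. The ratio classes, the median ratios of gene groups and the ratio threshold add 1 RPKM to both values. Bra031207 followed at 27.7 and 375 RPKM, a ratio of 13.5 (interval 7.50 to 26.8). Bra013463 had 19.0 RPKM in fertile against 352 RPKM in sterile buds, which is a ratio of 18.5 (interval 10.1 to 37.8). By level these genes took places 7334 and 9581 of the fertile library and places 513 and 562 of the sterile library.

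Bra002840 had 80.6 RPKM in fertile against 338 RPKM in sterile buds, which is a ratio of 4.19 (interval 2.42 to 7.65). Bra038803 had 21.1 and 322 RPKM, a ratio of 15.2 (interval 5.61 to 58.0) that rested on a minimum of 4 reads in fertile buds. Both intervals were computed at the minimum reads, which fit lengths of 117 bp and 105 bp, and would be narrower if the true reads were a multiple. In the authors' deposited table Bra038803 had a q-value of 6.7e-28, lower than the 4.3e-18 of Bra031207. The true reads of Bra038803 can thus lie well above its minimum. Bra010292 had 55.5 RPKM in fertile against 276 RPKM in sterile buds, which is a ratio of 4.96 (interval 3.77 to 6.62). These 6 genes were the members among the 1000 most abundant genes of sterile buds.

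Of the next members by level, Bra020920 and Bra013123 stood apart by their low fertile level. Bra020920 had 4.14 RPKM in fertile against 206 RPKM in sterile buds, which is a ratio of 49.8 (interval 16.7 to 245). Bra013123 had 5.71 and 173 RPKM, a ratio of 30.4 (interval 12.7 to 95.1). The other 7 of the 15 most abundant members, from Bra025553 at 181 RPKM to Bra029174 at 121 RPKM in sterile buds, lay between 11.2 and 35.0 RPKM in fertile buds. In that group Bra022668 had the highest ratio, 11.0 (interval 6.19 to 21.2), and Bra029174 the lowest, 4.48 (interval 2.96 to 6.99). Bra035505 had 20.8 and 144 RPKM, Bra000840 had 31.8 and 143 RPKM, and Bra039980 had 22.1 and 128 RPKM in fertile and sterile buds.

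**Figure D2:**
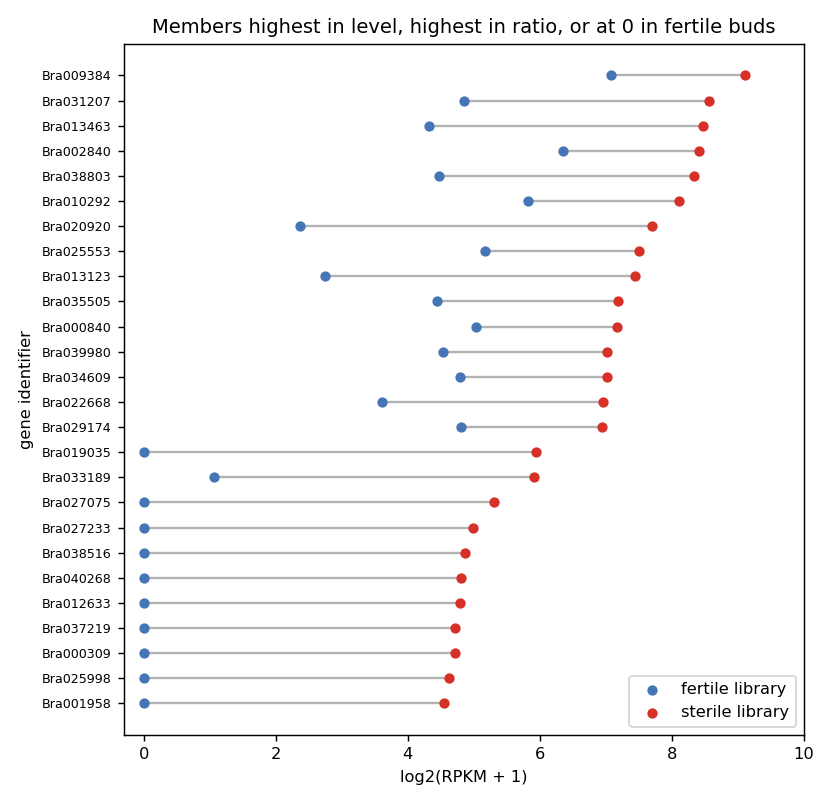
Level in fertile (blue) and sterile buds (red) as log2(RPKM + 1), horizontal axis, for the 15 members with the highest sterile level, the 10 with the highest ratio and the 10 highest of those at 0 in fertile buds, some of which are the same genes. The genes at 0 in fertile buds all lie in the lower part of the plot, at sterile levels from 22.5 to 60.8 RPKM.

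Of the 15 members highest in level 6 had a ratio of 10 or more, and of all 122 members 40 had. Bra020920 was both among these 15 and among the 10 highest in ratio. Of the 10 highest in ratio 8 were at 0 in fertile buds. The remaining gene, Bra033189, had 1.09 RPKM in fertile against 59.4 RPKM in sterile buds, from a minimum of 3 and 142 reads. Its ratio of RPKM was 54.4 (interval 18.3 to 267), and its ratio with 1 RPKM added to both values was 28.9.

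Genes with no read in fertile buds were 13 of the 122 members. They were also all the genes at 0 in fertile buds that reached 20 RPKM in sterile buds, since any such gene meets the ratio. Their sterile levels were low for the members, from 20.1 to 60.8 RPKM with a median of 25.4 RPKM. Most rested on few reads, with a minimum in sterile buds of 4 to 60 and a median of 11. Set against 3 reads in fertile buds, the fold ranged from 1.53 to 23.0, and it was 4 or more for 7 of the 13. These folds allow for the 0 reads in fertile buds but not for counting error in sterile buds, so the counting interval of each gene reaches lower.

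The best measured of the genes at 0 were 3 whose exact reads could be recovered. Bra037219 had 60 reads and 25.4 RPKM in sterile buds, a fold of 23.0 against 3 reads, and its counting interval began at 18.1. Bra040268 had 46 reads and 26.9 RPKM, a fold of 17.6 with an interval from 13.8. Bra022732, the third, had 35 reads and 22.3 RPKM, a fold of 13.4 with an interval from 10.3. In these genes 3 reads in fertile buds would have been at most 1.67 RPKM, far under the sterile level.

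The other 10 had shorter minimum lengths, with a median of 214.5 bp, and their true lengths can be a multiple. Bra019035 had the highest ratio of all members, 61.8 with 1 RPKM added, from 60.8 RPKM in sterile buds. At its minimum of 10 reads and length of 105 bp, the fold against 3 reads was 3.83 and the counting interval began at 2.58. At that length 3 reads in fertile buds would have been 15.8 RPKM. Bra027075 had 38.7 RPKM from a minimum of 6 reads, a fold of 2.30 against 3 reads, and its counting interval began at 1.35. Bra012633 and Bra025998 had 26.6 and 23.6 RPKM from a minimum of 4 reads each. For these last 2 genes the lower end of the counting interval was 0.759, so at the minimum reads a difference from fertile buds was not detectable. Bra027233, Bra000309, Bra038516 and Bra001958 had 30.8, 25.2, 28.1 and 22.5 RPKM from minimums of 10, 11, 16 and 17 reads. Their folds against 3 reads were 3.83, 4.22, 6.13 and 6.52, and their counting intervals began at 2.58, 2.89, 4.44 and 4.75.

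The members took up a small part of the messenger RNA. They held 0.657% of the summed RPKM of all genes in sterile buds and 0.0927% in fertile buds. The 10 most abundant members held 35.5% of the members' sterile sum, and the 15 most abundant held 43.3%. The 13 genes at 0 in fertile buds held 0.0298% of the sterile sum. As reads, the members had a minimum of 7765 in sterile buds, 0.495% of the library, and of 1290 in fertile buds, 0.0715%. If gene lengths are multiples of 3 bp and at least 90 bp, both shares are lower bounds, as the true reads can be a multiple of the minimum.

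Genes lower in sterile buds by the mirrored rule differed in number, size and share. With named genes kept in on both sides, 865 genes (2.11%) were lower and 135 genes (0.329%) were higher. Of the fertile RPKM sum the lower genes made up 16.7%, and of the sterile sum 0.325%, while the higher genes made up 0.779% of the sterile sum. Of the lower genes 590 (68.2%) had a ratio of 20 or more, against 19 (14.1%) of the 135 higher genes. Of the lower genes 447 (51.7%) were at 0 in the other library, against 13 (9.63%) of the higher genes. The median ratio was 32.6 for the lower and 6.28 for the higher genes. With 1 library per group these differences were not tested. The fall of the lower genes from 16.7% to 0.325% of the RPKM sum stood beside the shared shift of 0.17 given above, and its part in the members' ratios was not tested.

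The authors' deposited table of differing genes listed 75 of the 122 members, each as higher in sterile buds. That table held 106 genes higher in sterile buds, 0.258% of all genes. It compares the same 2 libraries that chose the members, so the 75 are no independent support. In the authors' deposited table their log2 fold changes of fertile over sterile ran from -6.14 to -1.80, and their q-values reached 0.000799. These fold changes are not on the scale of the rule. Bra009384, at -1.80, had a difference of sterile minus fertile of 2.03 on the log2(RPKM + 1) scale. The value of -6.14 belonged to Bra037219, at 0 in fertile buds, and is no measured fold. The other genes higher in sterile buds in the authors' deposited table were 14 that the authors had named and 17 that missed a threshold of the rule.

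Listed members had higher levels and larger minimum reads. Of the 19 members at 100 RPKM or more in sterile buds 18 were listed in the authors' deposited table, of the 39 at 40 to 100 RPKM 30 were, and of the 64 at 20 to 40 RPKM 27 were. The 47 members that were not listed had a minimum of 4 to 39 reads in sterile buds with a median of 14, and the 75 listed members had 12 to 386 with a median of 65. All 58 members with a minimum of more than 39 reads were listed. Minimum reads can fall short of the true reads by a different factor in each gene. In the authors' deposited table Bra019616 and Bra009516 had the same log2 fold change, -1.96, and q-values of 8.3e-05 and 4.2e-05. Their minimum reads in sterile buds were 12 and 64. Whether listed members had more true reads was therefore not tested. The median ratio was 6.38 for listed and 6.11 for other members. The most abundant member that was not listed was Bra025785, at 20.5 RPKM in fertile against 110 RPKM in sterile buds. Its minimum reads were 6 (fertile) and 28 (sterile), and its ratio of RPKM was 5.37.

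**Figure D3:**
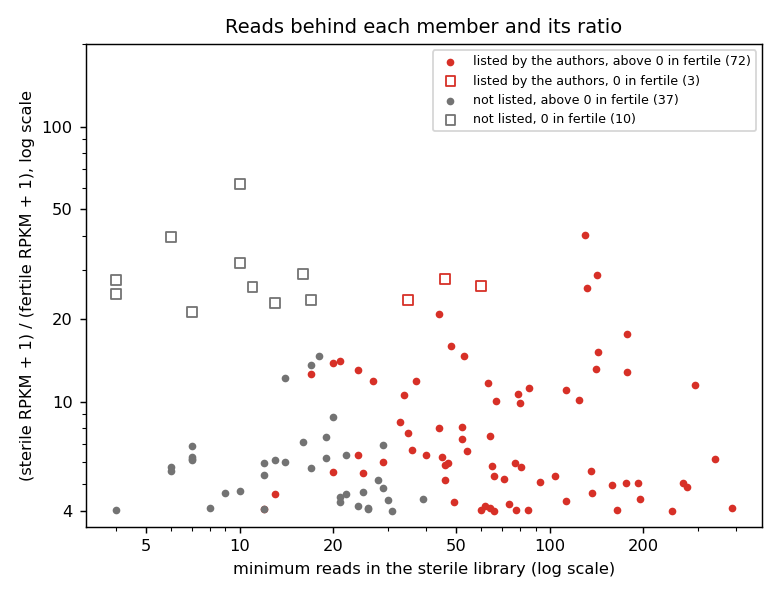
Minimum reads of each member in sterile buds (horizontal axis, log scale) and its ratio with 1 RPKM added to both values (vertical axis, log scale). Members listed by the authors (red) have a minimum of 12 to 386 reads and the others (grey) of 4 to 39 reads. Squares mark the 13 genes at 0 in fertile buds, 10 of which were not listed.

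Counting error at the minimum reads differed widely between members. The interval of the ratio lay above 1 for 116 members, above 2 for 93 and above 4 for 31. Among all 27940 genes with an RPKM of at least 1 in a library, it did so for 4086 (14.6%), 267 (0.956%) and 55 (0.197%). Since the ratio chose the members and the intervals use minimum reads, these numbers are a description and no test. The 6 members whose interval reached 1 had a minimum of 4 to 8 reads in sterile buds. They were Bra008205, Bra002050, Bra012633, Bra035597, Bra029089 and Bra025998, and none of the 6 was listed in the authors' deposited table.

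Named genes met the same thresholds in 13 cases and were left out. All 13 came from the authors' pathway table and were also in their list of differing genes. They encode 3 peroxidases, which act on phenolic compounds in cell walls, 2 cytochrome P450 enzymes, 2 copies of the glucosyltransferase DOGT1, 2 ribosomal proteins, and 1 each of a calmodulin-like protein, an oxophytodienoate reductase listed under linolenic acid metabolism, a serine acetyltransferase of cysteine synthesis and an oxygenase of the ethylene-forming type. The 4 with the highest ratios were Bra011761 (CYP91A2), at 1.85 RPKM in fertile against 108 RPKM in sterile buds, Bra017761 (AT4G36430, a peroxidase) at 0.557 and 41.6 RPKM, Bra039920 (AT2G18150, a peroxidase) at 0.549 and 24.6 RPKM, and Bra019070 (AT4G27090, a ribosomal protein) at 2.74 and 58.3 RPKM. As a group the 13 had a median of 88.1 RPKM in sterile buds and a median ratio of 7.95, against 38.5 RPKM and 6.18 for the members. None of the 13 was at 0 in fertile buds, and their minimum reads in sterile buds were 26 to 507.

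Most members lay singly along the identifier series. Bra numbers follow one another within a stretch of the annotation, so consecutive numbers usually stand for adjacent genes, but genome positions were not used here. In the first 8 blocks of 5000 numbers there were between 9 and 22 members each. Of the 122 members 8 (6.56%) had another member at the next number, in 4 pairs, and no run was longer than 2. Of the genes without a name 0.299% were members. That is a share per gene, whereas a member can have a neighbour on either side, so it is not a like measure to the 6.56%, and the difference was not tested. With named genes kept in on both sides, 8 of 135 higher genes (5.93%) and 116 of 865 lower genes (13.4%) had such a neighbour, and the longest run of lower genes was 4. The lower genes are more numerous, so these shares cannot be set against each other directly.

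The pair with the most abundant single gene was Bra034608 and Bra034609. Bra034608 had 0.382 RPKM in fertile against 21.1 RPKM in sterile buds. Its ratio of RPKM, 55.2, rested on a minimum of 1 read in fertile buds (interval 9.45 to 2226). With 1 RPKM added to both values its ratio was 16.0. Bra034609 had 26.8 and 128 RPKM, a ratio of 4.78 (interval 3.25 to 7.21). The next gene, Bra034610, was no member but also stood higher in sterile buds, at 3.39 and 14.3 RPKM.

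Another pair was Bra025994 and Bra025995, with Bra025998 a member nearby. Bra025994 had 16.8 RPKM in fertile against 89.9 RPKM in sterile buds, which is a ratio of 5.35 (interval 3.27 to 9.16). Bra025995 had 6.85 and 65.0 RPKM, a ratio of 9.49 (interval 3.38 to 36.9). The genes on either side went the other way, with Bra025993 at 31.8 RPKM in fertile against 13.5 RPKM in sterile buds and Bra025996 at 42.9 and 26.9 RPKM. The pair was thus flanked by genes with less RPKM in sterile buds.

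The third pair, Bra019035 and Bra019036, rested on few reads. Bra019036 had 5.36 RPKM in fertile against 37.0 RPKM in sterile buds from at least 2 and 12 reads, giving a ratio of 6.90 (interval 1.54 to 63.5). The last pair was Bra000309, at 0 in fertile buds, and Bra000310, at 12.4 and 55.6 RPKM. On either side of it Bra000308 had 2.71 and 4.98 RPKM and Bra000311 had 10.3 and 15.8 RPKM. Values within a pair were unequal, but only for Bra034608 and Bra034609 did the counting intervals of the ratio not overlap. In the other pairs a difference in ratio between the paired genes was not shown. In 3 of the 4 pairs at least 1 gene had a minimum of 2 reads or fewer in fertile buds.

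Genes next to the members that were not members themselves had values near those of all genes. Neighbours that met the rule were members and are left out here, while the figures for all genes include the members. The neighbours left, 172 with an RPKM of at least 1 in a library, are thus a set from which the rule took some high values. Their median difference of sterile minus fertile was 0.22 on the log2(RPKM + 1) scale, against 0.17 for all 27940 genes at that level. Of the 172 genes 11.6% had a sterile value at least 1 higher on this scale, against 11.5% of all genes, and 12.8% were lower by at least 1, against 14.5%. At distances of 2 to 10 numbers the medians lay between 0.10 and 0.21, and the share of genes higher by at least 1 lay between 8.07% and 16.3%.

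**Figure D4:**
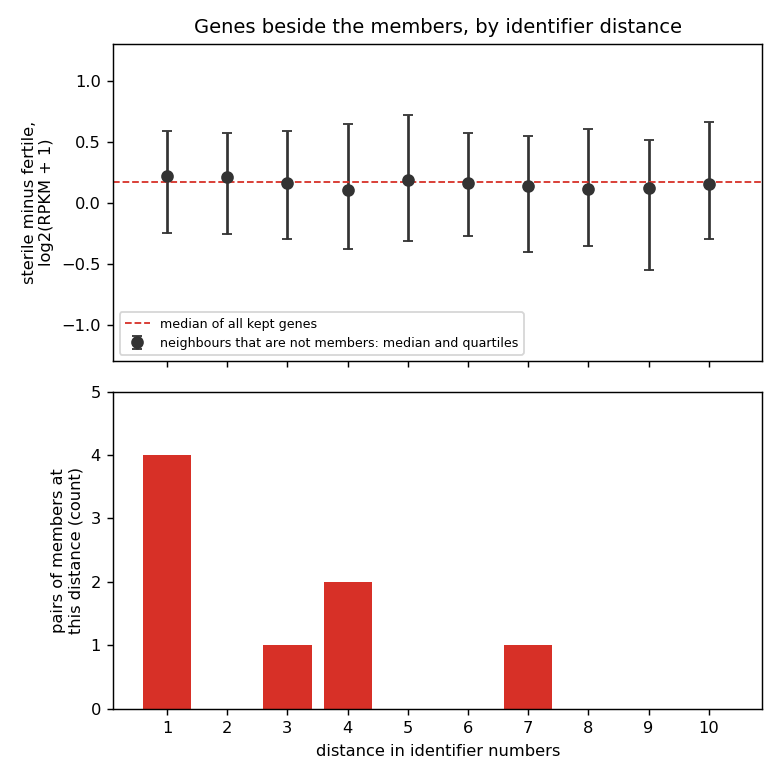
Upper panel, difference of sterile minus fertile as log2(RPKM + 1) for genes that are not members, at 1 to 10 identifier numbers from a member (points, medians; bars, lower to upper quartile), with the median of all kept genes as a dashed line. Lower panel, number of pairs of members at each distance, with 4 pairs at distance 1 and at most 2 at any other distance shown.

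Genes lay close to each threshold on both sides. Just inside the level threshold lay Bra032131 at 20.10 RPKM, Bra009455 at 20.11 RPKM and Bra005936 at 20.14 RPKM in sterile buds, and just outside it lay Bra014597 at 19.97 RPKM, Bra023662 at 19.93 RPKM and Bra033000 at 19.63 RPKM. Just inside the ratio threshold were Bra018271, Bra036082 and Bra007205 with ratios of 4.0002, 4.004 and 4.006. Just outside were Bra025654, Bra030743 and Bra021968 with ratios of 3.97, 3.947 and 3.944. These genes differ by much less than their counting error, so the rule does not separate members from other genes near a threshold.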

How the data were processed

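RNA was sequenced from 1 library of fertile and 1 of sterile buds. The authors deposited RPKM per gene, per the file headers, and a table of differing genes with log2 fold changes, p-values and q-values, whose test no source states. The submitters' processing notes name TopHat. Its version, the genome build, the annotation and the read counter are not stated in the sources used. The 10338 ribosomal RNA features were left out, and 0 of them met the rule.

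In the authors' deposited table, genes at 0 in 1 library have log2 fold changes proportional to whole reads (within 0.0001 of a whole number), which gave the library totals in steps of 3 bp, or 3 times larger totals in steps of 1 bp. Other reads are the smallest that fit both RPKM values at a length of at least 90 bp. These reads add up to 89.5% (fertile) and 88.8% (sterile) of the library totals. Recovery was tested on simulated data with known reads. Intervals are 95% Clopper-Pearson intervals of reads, bounds are set against 3 reads, and both cover counting error only, as reads are not independent molecules. Copies of a gene with near-identical sequence could share reads, which was not examined. With 1 library per group no p-value was computed.

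The members, and the lists of genes named, were chosen with earlier results of these data known. Named in the text are the 15 members highest in level, the 10 highest in ratio, those at 0 in fertile buds (the 10 highest), the 3 longest runs, 3 genes on each side of each threshold and the 4 left-out genes with the highest ratios. Bra022732, Bra025785, Bra019616, Bra009516, Bra000310, flanking genes and the 6 genes with intervals reaching 1 were added after their values were seen. Alternatives were the pseudocount, both thresholds, the scaling and the neighbour distance. Python 3.11.15, pandas 2.3.3 and scipy 1.17.1 were used.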

Additional observations from a re-analysis of the deposited data

How the results depend on the processing

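The number of members follows the thresholds. Against 122 members there were 76 with a pseudocount of 5, 237 with a sterile RPKM of at least 10, 58 with at least 40, 543 with no such minimum, 45 with a ratio of at least 8, 81 after rescaling sterile RPKM by the median ratio and 77 by the trimmed mean. Members at 0 in fertile buds numbered 47, 1 and 295 with a sterile RPKM of at least 10, of at least 40 and with no minimum, against 13. The share of the sterile RPKM sum, 0.657%, became 0.685% and 0.475% with pseudocounts of 0.5 and 5, 0.782%, 0.512% and 0.916% with those 3 levels, 0.242% with a ratio of at least 8, 0.461% and 0.441% with the 2 rescalings, and 0.779% with named genes kept in. In an alternative chosen after seeing the data, with at least 10 sterile reads, it was 0.628% over 109 members. Members with a neighbouring member, 8 in the main setting, numbered 2 with at least 40 RPKM, 32 with no minimum, 0 with a ratio of at least 8 and 4 with each rescaling, and the longest run was 1 with a ratio of at least 8. Of 184 log2 ratios of the 46 named genes under another pseudocount or scaling, 177 stayed within their counting interval, 7 moved out of it with a pseudocount of 5, and 0 changed sign. No change of sign was possible, as these genes had ratios near 4 or above and the scalings shifted them little. The small shifts likewise favoured staying within the interval. The intervals are of reads with nothing added, an unlike measure to a ratio with a pseudocount. They have no upper end for genes at 0 in fertile buds. The 177 are therefore a description and no test. No paired analysis was possible because each group has 1 library, and for the same reason no replicate could be left out.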
